A study of Drosophila melanogaster with 3 samples.

Results

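The dpr, DIP, beat and side genes of Drosophila melanogaster encode cell-surface and secreted proteins of the immunoglobulin superfamily that neurons use to find their partners. They were examined here for peaks of Jarid2, an accessory protein of Polycomb repressive complex 2 (PRC2). The members were the protein-coding genes with a symbol of the form dpr and a digit, DIP-, beat-, side, or side- and a numeral, 54 of 13945 protein-coding genes. There were 21 dpr, 11 DIP, 14 beat and 8 side genes. Whole embryos of both sexes, collected 0 to 24 h after laying, came from a transgenic line with green fluorescent protein (GFP) at the C terminus of Jarid2, and chromatin was immunoprecipitated with an antibody to GFP. The series had 1 group, Jarid2-GFP, of 3 biological replicates, and no embryos without GFP were analysed here. A list of 5464 peaks that passed a threshold of irreproducible discovery rate (IDR), called reproducible below, and a permissive list of 30000 peaks for each replicate were used. Read numbers were not part of these lists, so the depth of each replicate was unknown. Because neurons are a part of the embryo, a weak peak from a few cells and a weak peak from low occupancy in many cells cannot be told apart.

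Dpr proteins were named after dpr1, which is needed for the aversion of flies to salt, and the DIPs (Dpr-interacting proteins) are the receptors that bind them. The contacts between a given DIP and its Dpr partners help to match synaptic partners, for example in the optic lobe and at the neuromuscular junction. The Beat family is named after beat-Ia, which motor axons need to leave their nerve bundle, and Side is the ligand of Beat-Ia on the tissues along which these axons grow. PRC2 methylates histone H3 at silent developmental genes, and Jarid2 is one of its accessory subunits.

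The starts of the wiring genes are shown first, because the promoter summits described below lay near them. TCAGT, the core of the insect initiator at which transcription begins, was present on the sense strand within 10 bp of the 5'-most start in 12 of the 31 members with a reproducible promoter summit and in 6 of the 23 members without (38.7% and 26.1%), against 19.8% of the protein-coding genes with a promoter summit and 12.2% of all protein-coding genes. When the start nearest to the summit was used, 13 members with a promoter summit had it. The 6 of these with the strongest peaks, outside an arm that is not shown, are given from 60 bases upstream to 25 bases downstream of the start, 5′ to 3′ on the strand of the gene, with TCAGT in capitals. The sequences are from the Release 6 reference of RefSeq, which has dm6 coordinates. The dpr10 start (chr3L:10186083-10186168, minus strand) held 3 copies of TCAGT and the dpr9 start (chr3R:15077181-15077266, minus strand) held 2. The others were dpr4 (chr3R:11542924-11543009, minus strand), beat-IV (chr3R:23557352-23557437, plus strand), dpr6 (chr3L:9974591-9974676, plus strand) and dpr17 (chr3R:12094816-12094901, plus strand).
dpr10: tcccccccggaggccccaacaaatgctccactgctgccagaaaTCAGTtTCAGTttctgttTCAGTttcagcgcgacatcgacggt
dpr9: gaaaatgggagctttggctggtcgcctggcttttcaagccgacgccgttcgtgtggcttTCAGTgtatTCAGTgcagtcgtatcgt
dpr4: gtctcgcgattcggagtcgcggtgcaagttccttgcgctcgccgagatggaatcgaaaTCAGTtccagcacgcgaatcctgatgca
beat-IV: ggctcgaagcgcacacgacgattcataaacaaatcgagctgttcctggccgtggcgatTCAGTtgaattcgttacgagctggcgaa
dpr6: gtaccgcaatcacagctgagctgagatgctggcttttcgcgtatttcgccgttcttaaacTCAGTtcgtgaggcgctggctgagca
dpr17: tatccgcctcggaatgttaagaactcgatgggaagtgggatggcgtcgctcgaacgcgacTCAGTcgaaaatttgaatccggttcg
A further 6 members had no summit within 1000 bp of a start in any replicate list or in the list of the pooled replicates. The starts of 4 of them are shown. They were DIP-iota (chr2L:6621675-6621760), dpr15 (chr3R:12158570-12158655), dpr7 (chr4:253304-253389) and side-VII (chr3R:9739954-9740039), each on the minus strand. DIP-iota and dpr15 had 1 copy of TCAGT each, upstream of the start, and dpr7 and side-VII had 0 in these windows. The first 6 sequences were picked for TCAGT at the start and these 4 were not, so the sequences cannot be compared for it. Of the members with a promoter summit, the 13 with TCAGT at the start nearest to it had a median rank of 2752. The 18 without had a median rank of 1988, and this difference was not tested.
DIP-iota: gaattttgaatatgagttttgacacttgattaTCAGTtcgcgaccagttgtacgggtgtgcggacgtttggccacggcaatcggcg
dpr15: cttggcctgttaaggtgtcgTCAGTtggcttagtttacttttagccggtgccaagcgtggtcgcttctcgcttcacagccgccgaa
dpr7: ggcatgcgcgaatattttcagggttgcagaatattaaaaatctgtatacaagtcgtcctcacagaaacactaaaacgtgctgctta
side-VII: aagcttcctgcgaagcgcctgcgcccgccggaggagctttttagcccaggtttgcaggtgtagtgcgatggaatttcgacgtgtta

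Jarid2-GFP peaks were found at the promoters of 31 of the 54 wiring genes (57.4%), where a promoter peak is a reproducible summit within 1000 bp of an annotated start. Over all protein-coding genes the share was 25.5%. In the replicates, each reduced to its 5464 strongest peaks, 28, 31 and 28 members had such a summit, which is 51.9%, 57.4% and 51.9%, against 27.2%, 24.5% and 26.5% of all protein-coding genes. The mean was 53.7% ± 3.21 for the wiring genes and 26.0% ± 1.37 for all protein-coding genes (SD, n = 3 replicates each). The ranges of the replicates did not overlap, but they cover repeated peak calling on the same genes and not the spread between genes. A promoter summit was present in all 3 replicates at 23 members (42.6%), against 20.1% of all protein-coding genes. A summit between the start and the end of the gene was present in 30 members (55.6%), against 18.4% of all protein-coding genes. No test was made of these differences, since the members were a list of genes in 1 group of samples.

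The wiring genes were long, and in the classes of span above 20 kb their share lay close to that of all protein-coding genes. Of the members, 36 (66.7%) spanned 20 kb or more, against 7.26% of protein-coding genes, and the median span was 36.2 kb, against 2.17 kb. In the class of 20 to 50 kb, 13 of 19 members (68.4%) had a promoter summit, against 71.4% of the 706 protein-coding genes of that class. Above 50 kb the numbers were 12 of 17 members (70.6%) and 74.9% of 307 genes. From 5 to 20 kb they were 5 of 14 members (35.7%) and 45.9% of 2471 genes. Under 5 kb, 1 of 4 members had a promoter summit (dpr14), against 16.1% of 10461 genes. These shares are descriptions without a test. With the rate of all protein-coding genes in each class applied to the members' spans, 33.4 members would have a promoter summit, against the 31 that did. Over all spans, 1 annotated start was present in 42 members (77.8%) and in 73.5% of protein-coding genes, but at 20 kb or more it was present in 31 of 36 members (86.1%), against 37.5% of 1013 protein-coding genes. Among genes with 1 start, 11 of 15 members from 20 to 50 kb had a promoter summit (73.3%), against 70.4% of 270 genes, and 12 of 16 above 50 kb (75%), against 64.5% of 110 genes. From 5 to 20 kb they were 3 of 9 members (33.3%) and 39.2% of 1275 genes, and under 5 kb 0 of 2 members and 13.2% of 8591 genes. With the rates of 1-start genes in each class, a comparison added after the data were seen, 24.7 of the 42 members would have a promoter summit, against the 26 that did. Above 20 kb the members' share was thus slightly lower over all genes and higher among genes with 1 start. Each class held few members, and neither difference was tested.

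**Figure D1:**
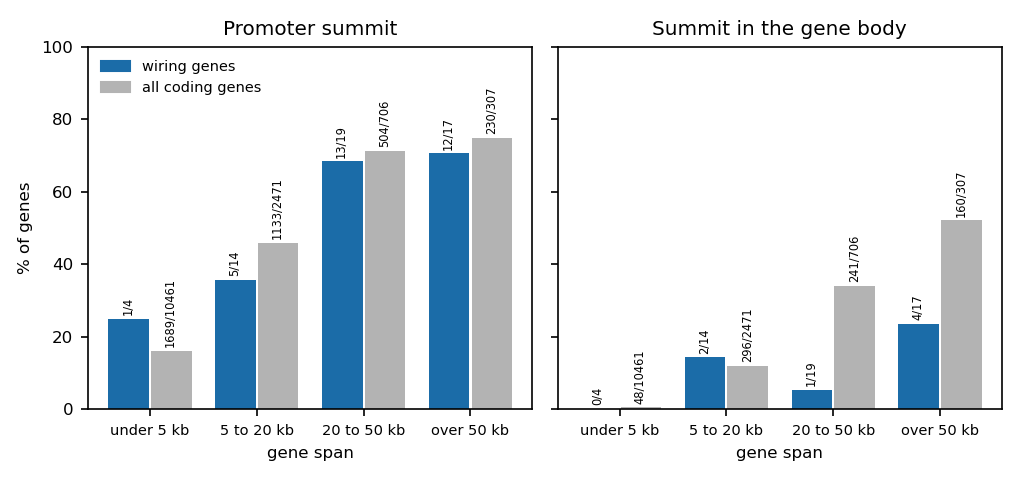
Share of genes (%) with a promoter summit (left) and with a summit in the gene body, inside the gene and over 1000 bp from every start of that gene (right), in 4 classes of gene span; blue bars are the 54 wiring genes, grey bars all 13945 protein-coding genes, and the fractions give the counts. Promoter shares of both were higher in the classes of longer span and lay close together above 20 kb (13 of 19 and 12 of 17 members), while 5 of the 36 longer members had a gene-body summit.

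The families differed in how many members had a promoter summit. Of the side genes 7 of 8 had one (87.5%), of the dpr genes 13 of 21 (61.9%), of the beat genes 8 of 14 (57.1%) and of the DIP genes 3 of 11 (27.3%). In replicates 1, 2 and 3 the counts were 6, 7 and 5 for side genes, 12, 14 and 14 for dpr genes, 8, 7 and 6 for beat genes, and 2, 3 and 3 for DIP genes. The DIP share was the lowest of the 4 families in every replicate, at 18.2%, 27.3% and 27.3%. For all protein-coding genes the shares were 27.2%, 24.5% and 26.5%. In the reproducible list the DIP share lay near the 25.5% of all protein-coding genes. The median span was 33.6 kb for DIP genes and 22.3 kb for dpr genes, and families were not compared within classes of span. The families are small and the difference between them was not tested. All 31 promoter summits were distinct, so no peak was counted for more than 1 member.

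**Figure D2:**
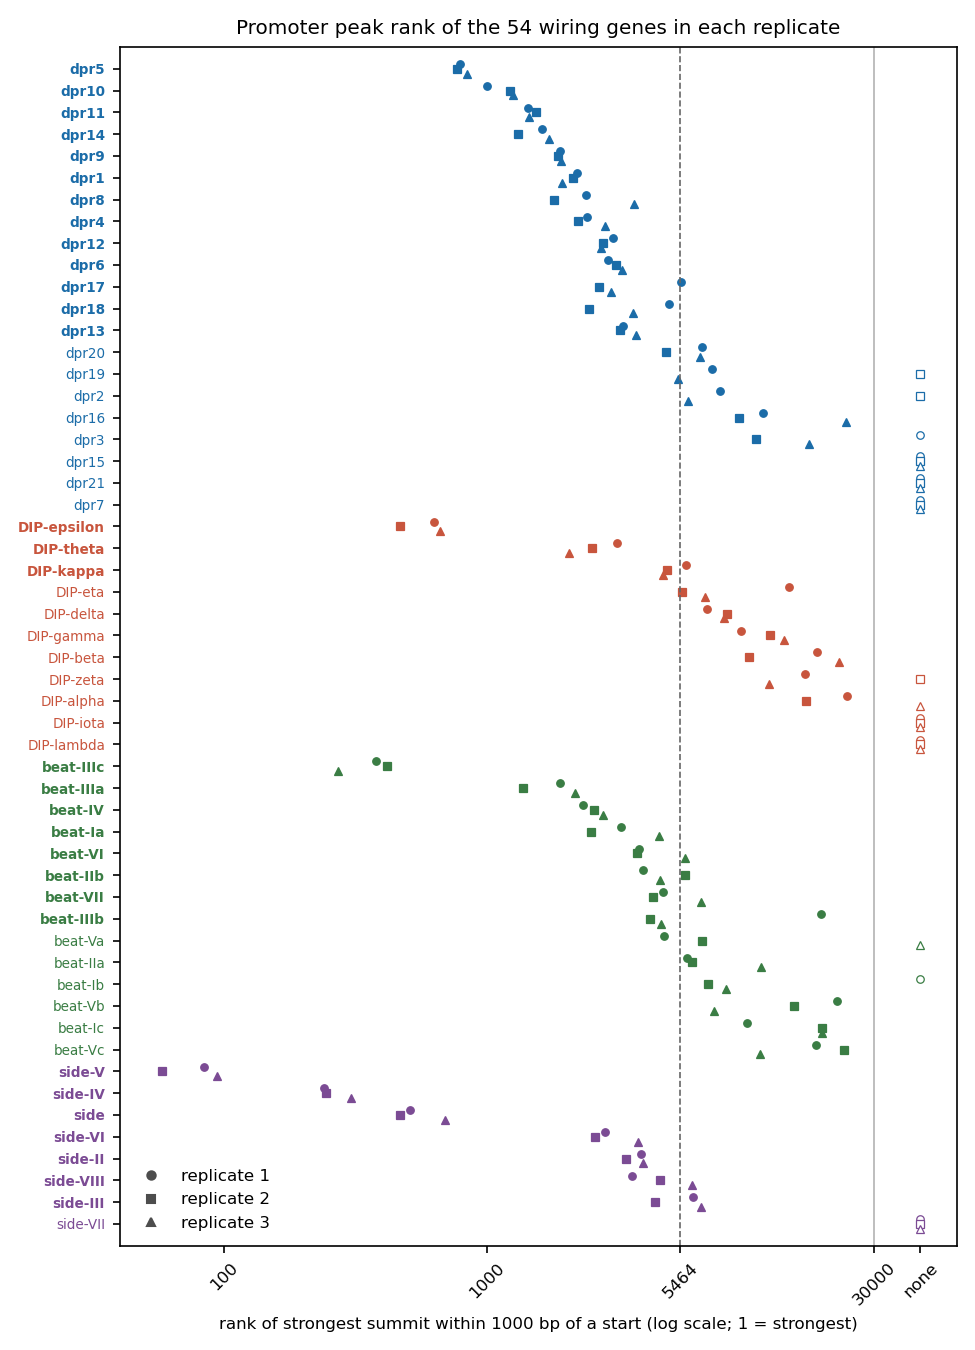
Rank of the strongest summit within 1000 bp of a start of each of the 54 wiring genes (rows, coloured by family) in replicates 1 to 3 (circle, square, triangle) on a log scale, where rank 1 is the strongest peak; open symbols at the right mark genes with none among the 30000 peaks, the dashed line is rank 5464, and bold names have a reproducible promoter summit. The side genes reached the strongest ranks (58 to 94 for side-V), and 8 of 11 DIP genes lay beyond the dashed line in every replicate.

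Among the side genes, side-V had the strongest promoter peak of all 54 members (chromosome 2R, 23203669 to 23204096), with rank 72 of 5464 and a summit 66 bp downstream of the start. It ranked 84, 58 and 94 in replicates 1, 2 and 3. Its rank was thus among the 100 strongest in every replicate. The promoter of side-IV (3R, 13450374 to 13450696) ranked 247, and 240, 244 and 305 in the replicates, with the summit 59 bp upstream of the start. The promoter of side (3R, 27437313 to 27437580), the founding member and ligand of Beat-Ia, ranked 535, and 512, 468 and 692 in the replicates. The other members of the family were far weaker, with ranks of 2722 for side-VI, 3400 for side-II, 4096 for side-VIII and 5168 for side-III. Of these, side-III lay near the end of the list and was among the 5464 strongest peaks in replicate 2 alone, at rank 4366, against 6100 and 6561 in replicates 1 and 3. Only side-VII of this family had no promoter summit, and 0 of the replicate lists of 30000 peaks had a peak there.

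Among the dpr genes the strongest promoter peak was that of dpr5 (3R, 11499882 to 11500168), at rank 796, and 790, 775 and 841 in the replicates. The peak of dpr10 (3L, 10185966 to 10186194) ranked 1122, and 1004, 1230 and 1263 in the replicates. That of dpr11 (3R, 6593224 to 6593383) ranked 1327, and 1443, 1544 and 1452 in the replicates. The ranks of these 3 genes spread little between replicates. They were followed by dpr14 (1451), dpr9 (1814), dpr1 (2024), dpr8 (2304) and dpr4 (2356). At dpr14 the summit lay 431 bp upstream of the start and nearer to a start of its neighbour spidey, at 214 bp. It was the only 1 of the 31 promoter summits with a nearer start of another gene. The remaining dpr genes with a promoter summit were dpr12 (2575), dpr6 (2752), dpr17 (2933), dpr18 (3067) and dpr13 (3163). In replicate 1 dpr17 ranked 5513 and fell just outside the 5464 strongest, against 2679 and 2988 in replicates 2 and 3. The best rank of any dpr promoter in a replicate was 775, at dpr5.

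The beat family was led by beat-IIIc (2L, 17260528 to 17260928), at rank 364, and 378, 418 and 271 in the replicates. Its neighbour beat-IIIa, with a gap of 14.5 kb between the genes, had rank 1671, and 1898, 1376 and 2179 in the replicates. The related beat-IIIb ranked 4986, with 18807, 4214 and 4602 in the replicates, so replicate 1 had only a weak peak. The promoter of beat-IV ranked 2386, and 2338, 2574 and 2781 in the replicates. For beat-Ia the rank was 2932, and 3263, 2511 and 4535 in the replicates. The 3 weakest of the remaining peaks, at beat-VI (3614), beat-IIb (4426) and beat-VII (4461), were each missing from the 5464 strongest of 1 replicate. At beat-IIb the summit lay 54 bp downstream of the inner of 2 starts, 17.2 kb from the outer start.

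Of the 11 DIP genes, 3 had a promoter summit (27.3%), against 25.5% of all protein-coding genes. At DIP-epsilon (2L, 6411128 to 6411411) the rank was 553, and 631, 467 and 663 in the replicates. At DIP-theta (2L, 5658366 to 5658815) it was 2331, and 3143, 2518 and 2055 in the replicates. At DIP-kappa (2L, 13717054 to 13717503) it was 4839, and 5740, 4861 and 4717 in the replicates, so it fell outside the 5464 strongest peaks of replicate 1. All 3 genes lie on chromosome arm 2L, as do DIP-eta, DIP-iota and DIP-zeta, which had no promoter summit. DIP-gamma, without a promoter summit, had its strongest peak at ranks 9284, 12014 and 13581, DIP-delta at 6919, 8275 and 8026, and DIP-beta at 18151, 9985 and 21994. These were 3 of the 6 DIP genes that had no reproducible summit in the gene either.

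Promoter summits were set side by side for 6 pairs of a receptor and its known ligand. DIP-alpha binds Dpr6 and Dpr10, and dpr6 (rank 2752) and dpr10 (rank 1122) had promoter summits while DIP-alpha had none. DIP-gamma binds Dpr11, and dpr11 (rank 1327) had a promoter summit while DIP-gamma had none. DIP-delta binds Dpr12, and dpr12 (rank 2575) had one while DIP-delta had none. In these 4 pairs the promoter summit was at the gene of the Dpr partner and not at that of the DIP, and DIP-alpha had an intronic summit (rank 3434). The 3 DIP genes with a promoter summit are in none of these pairs. In the other 2 pairs both genes had a promoter summit: side (535) with beat-Ia (2932), and side-IV (247) with beat-IIb (4426). Over the whole families, 27.3% of DIP genes and 61.9% of dpr genes had a promoter summit, so most DIP genes had none in any pairing. The pairs share genes and were chosen from background knowledge, and the pattern was not tested.

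The 23 members without a reproducible promoter summit were not uniform. In 15 of them the pooled permissive list had a weaker promoter peak, from rank 5549 to rank 23829 with a median of 9746, so 46 of the 54 members (85.2%) had a promoter peak in that list, against 46.2% of all protein-coding genes. In the replicate lists of 30000 peaks, 10 of the 23 had a promoter peak in all 3, 7 in 1 or 2, and 6 in 0. These counts are given for the members only, and not for the 10389 protein-coding genes without a reproducible promoter summit. The member nearest below the threshold was dpr20, at pooled rank 5549, with 6637, 4845 and 6480 in the replicates. At dpr19 the ranks were 7212 and 5360 in replicates 1 and 3, and replicate 2 had none. At dpr16 they were 11328, 9146 and 23443. In the beat family, beat-Va ranked 4742 and 6596 in replicates 1 and 2 with none in replicate 3, beat-IIa ranked 5795, 6083 and 11084, and beat-Ic ranked 9790, 18961 and 19023. The 6 members without any promoter peak were dpr7, dpr15, dpr21, DIP-iota, DIP-lambda and side-VII, of which dpr21 and DIP-lambda were named after their values were seen. DIP-lambda, at 379 kb the longest member, had 0 reproducible summits along its whole span.

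Where a promoter summit was present it lay just downstream of the start. Of the 31 summits, 25 (80.6%) were 0 to 100 bp downstream, against 47.3% for the strongest promoter summit of all 3556 protein-coding genes with one, and the median was 49 bp downstream, against 30 bp. In the narrower interval of 20 to 70 bp downstream there were 22 members (71%), against 31.6%. The medians of the families were 54 bp for dpr, 41 bp for DIP, 45.5 bp for beat and 38 bp for side. In 26 members (83.9%) the summit was in an annotated 5' UTR of the member, against 52.3%. Of the 6 summits outside 0 to 100 bp downstream, side-IV (59 bp), DIP-theta (31 bp), beat-IIIb (16 bp), dpr8 (2 bp) and dpr14 (431 bp) had theirs upstream of the start, and dpr18 had its summit 175 bp downstream. No start of another gene was nearer to the summit in 30 of the 31 members (96.8%), against 77.8% of the protein-coding genes. Among these, the share 0 to 100 bp downstream was 83.3% in members, against 60.2% of 2768 protein-coding genes. Among genes of 20 kb or more the share 0 to 100 bp downstream was 88% in 25 members, against 76.8% in 734 protein-coding genes with a promoter summit. The start of beat-IIIa is also annotated as a start of CG34106, so its summit has the same distance to both.

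**Figure D3:**
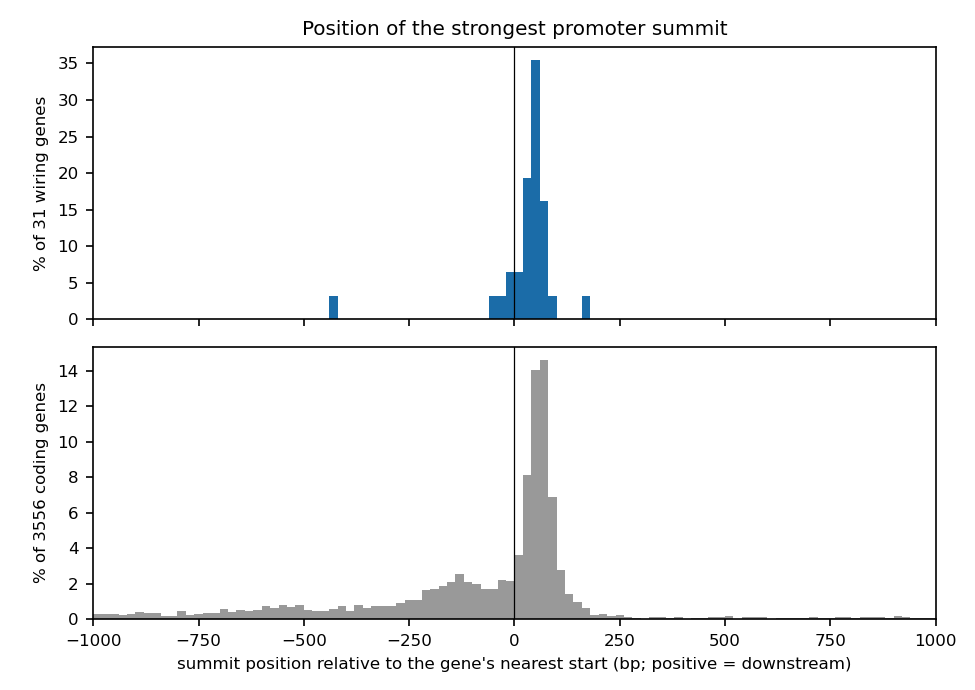
Position of the strongest promoter summit relative to the nearest start of the gene, in bins of 20 bp, as a share (%) of the 31 wiring genes (top) and of the 3556 protein-coding genes (bottom) with a promoter summit; positive positions are downstream. The wiring genes lie in 1 narrow group around the median of 49 bp with dpr14 (431 bp upstream) and dpr18 (175 bp downstream) outside it, and the lower panel has a further broad group upstream of the start.

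Each of the 31 members had exactly 1 promoter summit, against 74.6% of the protein-coding genes with a promoter summit. Among those with 1 annotated start it was 26 of 26 members, against 84.5% of 1899 genes, and among those of 20 kb or more 25 of 25 members, against 55.9% of 734 genes. The ranks were also weaker than those of all long protein-coding genes. The median rank over members of 20 kb or more was 2575, against 1011 for protein-coding genes of that length. Of these 25 members 4 (16%) were among the 1000 strongest peaks, against 49.6%. The number of starts was not held equal in these comparisons of long genes, and the strongest summit near any start gave the rank. With or without a summit, 86.1% of members of that length had 1 start, against 37.5% of protein-coding genes. Over all spans the median rank was 2386 for the 31 members, against 1958, and 18 of them (58.1%) were among the 2732 strongest peaks, against 64.2%. A rank carries the authors' order of signal within a list and is no measure of occupancy.

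Reproducible summits were also found in gene bodies. Inside a member and over 1000 bp from every start of that member there were 10 summits, all intronic, in 7 members (13%), against 5.34% of all protein-coding genes. In the class of 20 to 50 kb 1 of 19 members had one (5.26%), against 34.1% of protein-coding genes, and above 50 kb 4 of 17 (23.5%), against 52.1%. From 5 to 20 kb 2 of 14 members had one (14.3%), against 12%, and under 5 kb 0 of 4, against 0.459%. With the rates of all protein-coding genes in each span class, 17 members would have such a summit, against the 7 that did. Only 2 of the 10 were nearer to a start of the member than to a start of another gene: one 2.44 kb downstream at side-IV (rank 3538) and one 1.78 kb downstream at side-V (rank 5385). Of the other 8, 5 lay within 500 bp of the start of another gene.

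**Figure D4:**
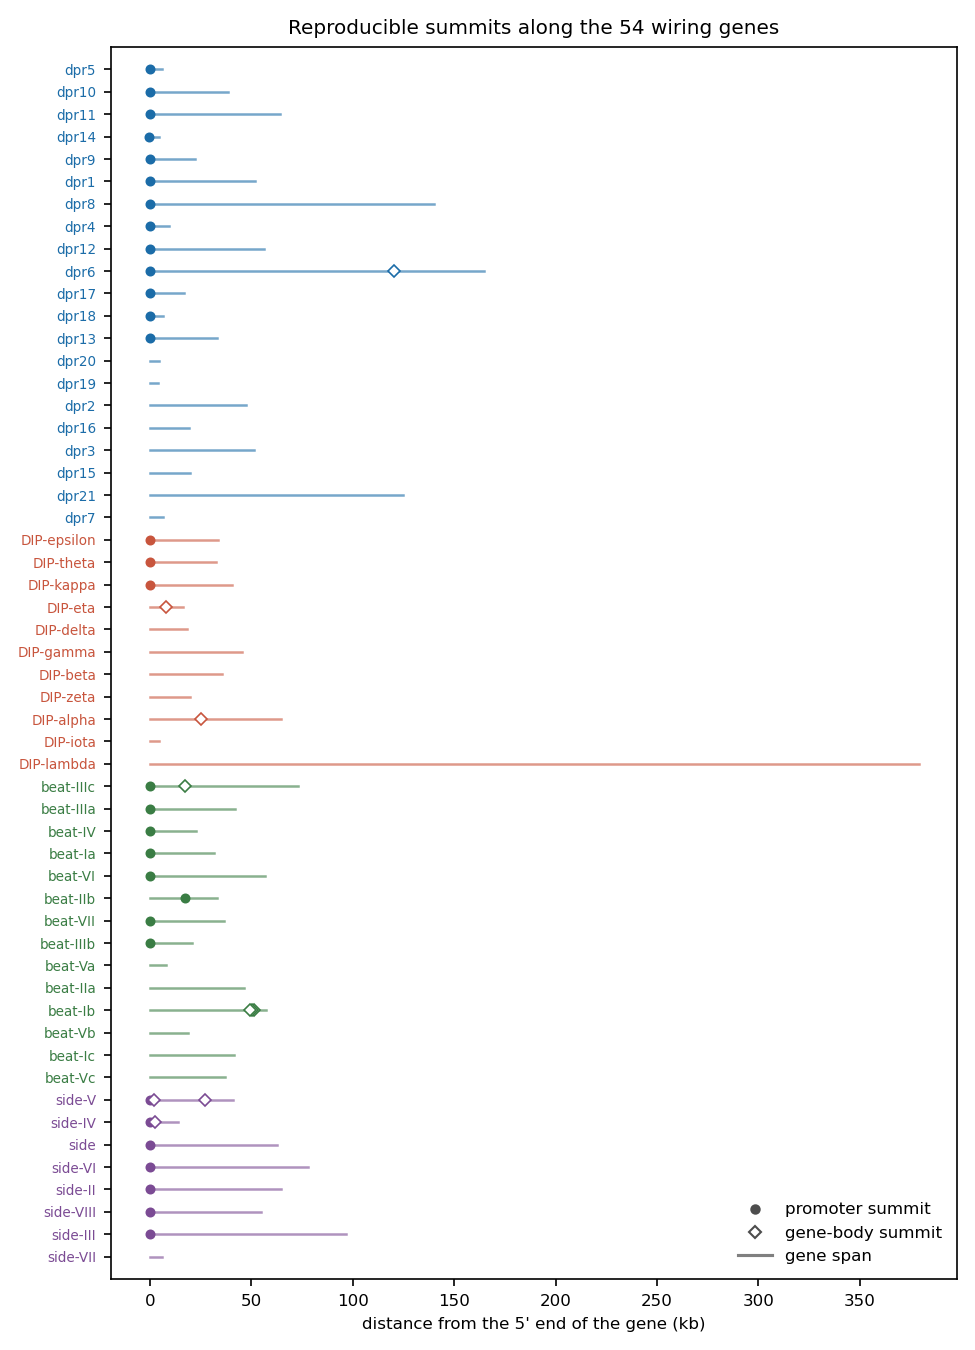
Reproducible summits along each of the 54 wiring genes, drawn as lines from the 5' end of the gene (distance in kb), with promoter summits as filled circles and gene-body summits as open diamonds, coloured by family. All but 1 of the promoter summits are at the 5' end, beat-IIb being the exception at 17.2 kb, and the 10 gene-body summits are in 7 genes.

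The strongest gene-body summits were at beat-Ib, which had no promoter summit. They ranked 1021, 1813 and 2514, lay in an intron 51.1, 50.2 and 49.5 kb from its start, and were 405, 371 and 417 bp from the nearest starts of the non-coding RNA genes lncRNA:CR44867 and lncRNA:CR44868. In replicates 1, 2 and 3 the strongest of them ranked 1069, 1327 and 843. All 3 replicates held each of these summits. DIP-alpha had an intronic summit of rank 3434, 236 bp from the start of lncRNA:CR34335, with 5436, 3456 and 2619 in the replicates. The intronic summit of dpr6 (rank 3973), 120 kb from its start, was 4 bp from the start of the nested coding gene CG32054. Beside side-IV, side-V had a further summit of rank 4333 at 27.2 kb. Peaks at DIP-eta (5303) and beat-IIIc (5199) were each held by 1 replicate, 4938 and 3038 bp from the nearest start of any gene.

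Ranks were similar between replicates. The ratio of the highest to the lowest replicate rank had a median of 1.44 over the 31 members, was under 1.5 for 18 of them, and reached 4.46 at beat-IIIb. All 3 replicates held 23 of the 31 summits (74.2%) within 200 bp among their 5464 strongest peaks, against 76.5% for protein-coding genes with a promoter summit. The weakest of the 3 ranks was that of replicate 3 at 21 members, of replicate 1 at 7 and of replicate 2 at 3. For protein-coding genes with a promoter peak in every replicate, replicate 3 was the weakest at 44.1%, replicate 1 at 25.2% and replicate 2 at 30.6%. The reproducible list was made from the same replicates, so their support is not independent of it.

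Members that are neighbours did not always share the presence of a peak. Of 10 pairs of adjacent members with gaps of up to 100 kb, 3 had a promoter summit at both genes, 4 at 1 of them and 3 at 0. The pairs held 18 members, as some pairs share a gene, and 57.4% of all members had a promoter summit. No counts for adjacent pairs of other protein-coding genes are given, and a relation between neighbours was not tested. Both genes had one at dpr6 and dpr10 (8.09 kb apart), dpr5 and dpr4 (27.5 kb) and beat-IIIa and beat-IIIc (14.5 kb). In contrast, beat-Ia had one while beat-Ic, 8.26 kb away, did not. DIP-theta had one while DIP-eta, 8.34 kb away, did not. At the beat-V genes, 57.3 and 67.6 kb apart, there was none at any of the 3.

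Motifs were counted in the 150 bp either side of each promoter summit, on both strands. Of the member summits, 93.5% lay within 100 bp of a start of the gene, against 57.1% for all protein-coding genes with a promoter summit. The windows thus differed in how often they covered a start, and this was not held equal. TCAGT was in 25 of the 31 windows (80.6%), against 57.7% of the windows of all protein-coding genes with a promoter summit and 54.1% of all reproducible summits. GTGTGT, a repeat bound by Combgap, a protein that recruits Polycomb complexes, was in 15 (48.4%), against 29% and 30.3%. GAGAG, bound by GAGA factor, was in 12 (38.7%), against 46% and 47.5%. GCCAT, the core bound by Pho, a DNA-binding Polycomb protein, was in 10 (32.3%), against 36.8% and 38.9%. The elements of housekeeping promoters were rare at the members and in the windows set against them alike. TATCGATA (the DRE) was in 1 member window (3.23%), against 5.37% and 2.54%. GGTCACACT (Ohler motif 1) was in 0, against 5.17% and 2.58%. In windows of 100 bp either side, GTGTGT was in 9 (29%), against 19.4% and 20.6%, and GAGAG in 7 (22.6%), against 29.8% and 31.4%. A window counted as 1 for a motif however many copies it held, and GAGAG and GTGTGT can overlap themselves in longer repeats. Around the 5'-most start, again 150 bp either side, TCAGT was in 24 of the 31 members with a promoter summit (77.4%), in 17 of the 23 without (73.9%) and in 52.4% of all protein-coding genes. GTGTGT was there in 15 members with a promoter summit (48.4%), 5 without (21.7%) and 17% of all protein-coding genes. GAGAG was there in 17 with (54.8%), 9 without (39.1%) and 30.7% of all. GCCAT was there in 13 with (41.9%), 7 without (30.4%) and 43.5% of all, TATCGATA in 2 with (6.45%), 0 without and 8.53% of all, and GGTCACACT in 0 with, 0 without and 5.75% of all. Unlike in the summit windows, the genes set against the members at these starts included those without a promoter summit. In the 100 bp upstream of the start, counted after the data were seen, GAGAG was in 22.6% of members with a promoter summit. It was there in 13% of members without, 22.1% of protein-coding genes with a promoter summit and 13.2% of all. A match is a description of the letters and not a bound site.

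Other adhesion genes, picked by symbol and not by the tissue in which they act, were listed for comparison. Over all protein-coding genes the share with a promoter summit was 25.5%, but it was 71.4% from 20 to 50 kb and 74.9% above 50 kb. Most of the listed genes span 20 kb or more, and they were not compared within classes of span. Of 20 further immunoglobulin superfamily genes, 15 had a promoter summit (75%), with a median rank of 582, against a median of 2386 for the wiring genes with one. Dscam1 (rank 61) and Fas3 (rank 93) had the strongest, and Dscam4, bdl, wrapper, Cont and fred had none. Of 13 adhesion genes of other classes, 9 had one (69.2%), with a median rank of 181, led by caps (6) and trn (58), and not CadN2, Nlg1, Nlg2 or Nlg3. Dscam2 (4868) and Dscam3 (4470) had ranks near those of the weaker beat genes. Of the wiring genes, side-V, side-IV, beat-IIIc, side and DIP-epsilon had ranks stronger than the median of the immunoglobulin list.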

How the data were processed

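Binding of Jarid2-GFP had been mapped by ChIP-seq in 3 biological replicates of whole embryos; per the labels the chromatin was sonicated to 200 to 800 bp. Per the deposited notes, permissive peak lists came from each replicate, or all of them together, set against a control alignment, and these lists gave the IDR-thresholded one. Neither aligner nor peak caller is given in the sources used here. The deposited signal of a peak, whose scale differs between lists, was used for ranks within a list. The reproducible list held the 5464 strongest peaks of the pooled list. The 5 lists on dm6 were used, and the lists on dm3 were not used here.

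Genes and starts came from Ensembl release 115 (BDGP6.54), without transposon insertions, on chromosomes 2L, 2R, 3L, 3R, 4 and X. A replicate held a peak when 1 of its 5464 strongest summits lay within 200 bp. Counts of members were set beside the same counts over all protein-coding genes, and no test was made. The counting was tested on simulated data. Python 3.11.15 and matplotlib 3.10.9 were used.

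The members, lists and motifs were chosen with earlier results of these data known. Named with values were up to 8 members per family with the strongest promoter summit, up to 3 per family with no summit, the 6 strongest gene-body summits and the partner pairs; any other member was named with its value already known. The counts at the start alone, the span-weighted counts, the comparison of genes of 20 kb or more, and the neighbouring pairs were also added then. Alternatives were other distances, lists, starts and windows, each replicate alone and each left out.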

Additional observations from a re-analysis of the deposited data

How the results depend on the processing

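With 1.5-fold as the limit, the number of members with a promoter summit (31 members, against 3556 of all protein-coding genes) changed by less than that in each alternative run except the 2732 strongest peaks alone, which gave 18 members (33.3%), against 2283 genes (16.4%). It was 30 (55.6%) against 2858 (20.5%) with each summit given to its nearest start, and 41 (75.9%) against 4765 (34.2%) with 10928 pooled peaks. With all 30000 pooled peaks, added after the data were seen, it was 46 (85.2%) against 6437 (46.2%). Leaving out a replicate, which kept the peaks that both others held, gave 24 to 26 members, against 2879 to 2990 genes. The number with a summit in the gene span (30 members, against 2562 genes) was 15 against 1748 with the 2732 strongest peaks, 23 to 24 against 2158 to 2239 with a replicate left out, and 33 against 3157 by overlap of the peak interval. The number of summits held by all 3 replicates was 23 with 200 bp and with 500 bp. In windows of 100 bp either side, GAGAG was in 7 member windows (22.6%, against 29.8% for protein-coding genes with a promoter summit) in place of 12, and GTGTGT in 9 (29%, against 19.4%) in place of 15, as the windows are shorter, and the other 4 motifs changed by less than 1.5 times. No paired analysis was possible because the series has 1 group. Unknown depth limits what the absence of a peak shows.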
